A study of Mus musculus with 4 samples.

Results

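Expression of YAP-TEAD regulators and target genes was examined in PDGFRα reporter+ and PDGFRα reporter− periosteal cells of the mouse. The 10 genes were the rows of the deposited table with the symbols *Yap1*, *Wwtr1*, *Tead1*, *Tead2*, *Lats2*, *Ctgf* (now *Ccn2*), *Cyr61* (now *Ccn1*), *Ankrd1*, *Amotl2* and *Axl*, that is 5 regulators followed by 5 target genes. All 10 had a log2 value in all 4 libraries, as did 14415 of the 45802 symbols of the table, while 16742 had a value in at least 1 library. The 4 libraries held total RNA, 2 from each population, which asks how the transcriptomes of both periosteal populations differ.

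All cells came from male Pdgfra-mTmG mice, in which a tamoxifen-inducible Cre driven by *Pdgfra* turns membrane tdTomato into membrane GFP. Every animal of both populations carried these alleles and received tamoxifen at 150 mg/kg per day over 5 days, with tissue taken 14 days after the last dose. Per the labels, femurs and tibias of 3 to 6 mice aged 9 to 10 weeks were pooled for a population, whereas the methods give another number. Cells were grown for 1 passage with 10 ng/mL basic fibroblast growth factor and then sorted as negative for CD31, CD45 and Ter119. GFP+ cells are the PDGFRα reporter+ population and tdTomato+ cells are the PDGFRα reporter− population. The GFP records recombination during the tamoxifen course and is inherited by daughter cells. The table headings number the libraries 2 and 3 within each population, and libraries are named by these numbers (libraries 2 and 3) throughout. Neither a shared source of equally numbered libraries nor separate animals for each pool is stated, so that p-values measure the spread between these libraries only.

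YAP (gene *Yap1*) and TAZ (gene *Wwtr1*) are transcriptional co-activators that do not bind DNA themselves and act through the TEAD family of DNA-binding factors. The Hippo kinases MST activate the LATS kinases, which phosphorylate YAP and TAZ and so keep them out of the nucleus, and cell density, stiffness of the substrate and the actin cytoskeleton bear on this step. In the skeletal lineage, YAP and TAZ are known for their part in mechanical responses and in the differentiation of osteoblast progenitors. Their activity is set largely at the protein level, which RNA libraries do not measure.

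All 10 genes are protein coding and lie on 6 autosomes of GRCm38 in the GENCODE M21 annotation. *Yap1* is at chr9:7931999-8004596, *Wwtr1* at chr3:57455649-57575910, *Lats2* at chr14:57689662-57758388, *Cyr61* at chr3:145646976-145649981, *Ankrd1* at chr19:36111961-36120099 and *Axl* at chr7:25757273-25788705, all on the minus strand. *Tead1* at chr7:112679318-112906807, *Tead2* at chr7:45215753-45233644, *Ctgf* at chr10:24595442-24598683 and *Amotl2* at chr9:102716672-102733418 are on the plus strand. *Tead2* overlaps *Cd37* on the opposite strand, and *Ctgf* (Gm15270), *Yap1* (Gm20416), *Wwtr1* (Gm16016) and *Tead1* (2310014F06Rik) overlap non-coding genes or a pseudogene there. *Lats2* overlaps opposite-strand models too, and *Lats2* (Gm49361) and *Tead1* (Gm44462, a miRNA) also overlap genes on their own strand, which the strand could not resolve. The libraries were stranded, but it is not stated whether counting used the strand, so the values of these 6 genes carry that uncertainty.

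Promoters were read for the hexamer GGAATG, the core of the site that TEAD factors recognise, because it is the sequence feature by which YAP-TEAD targets are best known. RefSeq windows of 300 bases on GRCm38.p6, 250 before to 50 after a start site, matched 8 of the 10 genes, and *Tead1* and *Ctgf* had no entry. On either strand the hexamer was found in 7 of these 8 genes, against 16.6% of the 27025 genes with a window. The windows of all 4 matched targets (*Cyr61*, *Ankrd1*, *Amotl2* and *Axl*) held it, as did those of *Yap1*, *Wwtr1* and *Lats2*, while that of *Tead2* did not. In *Lats2* it lay 5 bases after the start. The stretches below run 5′ to 3′ on the strand of the gene, with the hexamer in capitals, GGAATG where it is read on that strand and CATTCC where it is read on the opposite one.

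*Cyr61*, chr3:145650048-145650123, minus strand, hexamer 103 bases before the start: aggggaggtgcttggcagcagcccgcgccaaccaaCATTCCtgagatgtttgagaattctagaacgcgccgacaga

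*Axl*, chr7:25788926-25788983, minus strand, 233 bases before the start: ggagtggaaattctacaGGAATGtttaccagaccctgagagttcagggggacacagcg

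*Amotl2*, chr9:102717729-102717754, plus strand, 65 bases before the start: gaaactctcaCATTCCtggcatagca

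*Ankrd1*, chr19:36120039-36120064, minus strand, 210 bases before the start: cactgccaaaGGAATGaccctctcac

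*Ankrd1*, chr19:36119952-36119977, minus strand, 123 bases before the start: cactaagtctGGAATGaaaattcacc

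*Yap1*, chr9:8004697-8004772, minus strand, 141 bases before the start: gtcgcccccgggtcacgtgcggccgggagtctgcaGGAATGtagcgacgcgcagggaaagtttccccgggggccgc

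*Wwtr1*, chr3:57576006-57576081, minus strand, 136 bases before the start: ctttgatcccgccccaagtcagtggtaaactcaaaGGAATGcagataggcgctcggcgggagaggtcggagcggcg

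The stretches of *Cyr61*, *Axl*, *Yap1* and *Wwtr1* lie between annotated genes, and those of *Amotl2* and *Ankrd1* fall in exons annotated from other start sites of the same genes. The AP-1 motif TGANTCA, which often accompanies TEAD sites in distal elements, was in the windows of 0 of the 8 genes and in 8.97% of all genes. The CArG box bound by serum response factor, for which *Ctgf*, *Cyr61* and *Ankrd1* are also known, was in 0 of the 8 and in 1.81%. These are matches of letters, and no binding was measured.

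Between PDGFRα reporter+ and reporter− cells, the 5 target genes were each lower in reporter+ cells in both library numbers, as were 24.8% of all genes, with average log2 differences of −0.21 to −0.85. For *Ctgf* the difference in number 3 was only −0.005, and the average differences of *Ctgf* and *Cyr61* turned positive without 1 of the libraries. Here and below, leaving out 1 library leaves the populations unequal in library number. These fits between populations had no term for the number, so such shifts also hold the difference between numbers. *Yap1*, *Wwtr1*, *Tead1* and *Tead2* had no common direction. None of these differences passed the test after adjustment over all genes. With limma and Benjamini-Hochberg adjustment, 0 of the 10 genes and 0% of the 14415 genes tested had an adjusted p under 0.05. At an unadjusted p under 0.05 there was 1 of the 10, *Amotl2*, and 131 of all genes (0.909%). Applied to simulated libraries with the same spread between numbers, this fit did not call genes made to differ strongly between populations, so the lack of adjusted calls does not show that the 10 genes were alike. SEs and intervals of population differences below come from this fit. It has no term for the number, so they also hold the difference between numbers. In such bulk libraries, fewer cells of a type and less RNA per cell cannot be told apart. Whether the values are scaled to transcript length is not stated, so the levels of the 10 genes were compared between libraries and not with each other.

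**Figure D1:**
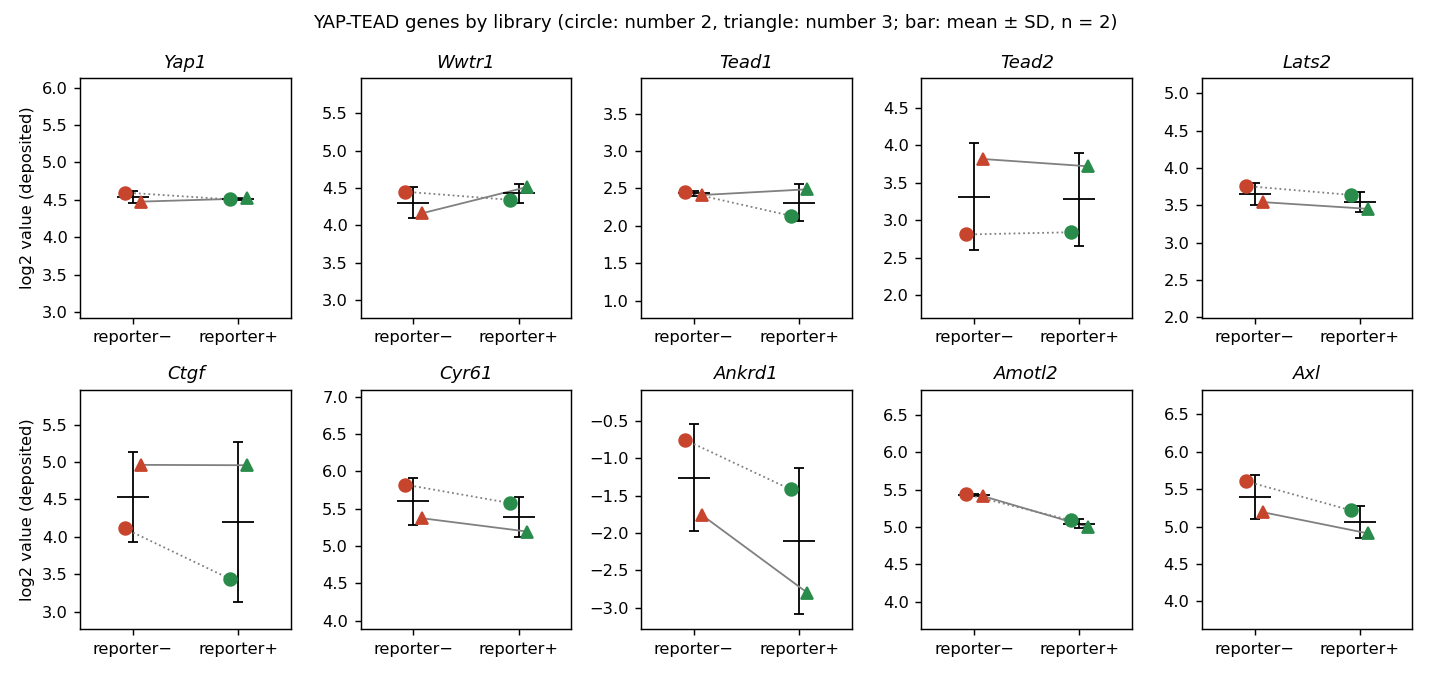
Deposited log2 values of the 10 genes in the 4 libraries, on y axes of equal span, with PDGFRα reporter− at the left and reporter+ at the right of each panel. Circles are libraries 2, triangles are libraries 3, grey lines join libraries of the same number, and black bars give mean ± SD (n = 2). *Amotl2* is the gene whose 2 reporter+ values (5.09 and 5.00) both lie below its 2 reporter− values (5.44 and 5.42), and *Tead2* and *Ctgf* are spread by number rather than by population.

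*Yap1* was at log2 4.51 and 4.52 in reporter+ libraries 2 and 3 and at 4.60 and 4.48 in reporter− libraries 2 and 3. Its reporter+ values lay between its reporter− values. The difference, reporter+ minus reporter−, was −0.02 (SE 0.14), with a 95% interval of −0.39 to 0.34, which is the narrowest bound among the regulators. *Wwtr1*, the gene of TAZ, was at 4.34 and 4.51 in reporter+ and at 4.45 and 4.16 in reporter− cells, with a difference of 0.12 (SE 0.17, interval −0.34 to 0.58). The populations overlapped for both co-activators, and reporter+ was below reporter− in number 2 (−0.09 for *Yap1* and −0.11 for *Wwtr1*) and above it in number 3 (0.04 and 0.35).

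*Tead1*, a DNA-binding partner of YAP and TAZ with broad expression in mesenchymal cells, was at 2.14 and 2.49 in reporter+ and at 2.45 and 2.41 in reporter− cells. The difference was −0.12 (SE 0.20), and 1 reporter+ library was below and the other above both reporter− libraries. *Tead2*, a paralogous factor, was at 2.84 and 3.72 in reporter+ and at 2.81 and 3.82 in reporter− cells. Its libraries of the same number were within 0.10 of each other and its populations overlapped, with a difference of −0.03 (SE 0.47). *Cd37*, which overlaps it, was at −2.48 and −0.49 in reporter+ and at −3.58 and −2.56 in reporter− libraries, and the part of *Cd37* reads in the *Tead2* value was not tested.

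*Lats2*, the kinase that phosphorylates YAP and TAZ and is itself a known YAP-TEAD target, was at 3.64 and 3.45 in reporter+ and at 3.76 and 3.54 in reporter− cells. It was lower in reporter+ cells in both numbers, with differences of −0.12 and −0.09, but the populations overlapped and the difference was −0.10 (SE 0.16, interval −0.54 to 0.33). Leaving out reporter− library 2 brought this difference to 0.00.

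*Amotl2*, an angiomotin family protein that binds YAP at cell junctions and is induced by YAP-TEAD, was at 5.09 and 5.00 in reporter+ and at 5.44 and 5.42 in reporter− cells. Both reporter+ libraries were below both reporter− libraries, at 5.05 ± 0.06 against 5.43 ± 0.02 (SD, n = 2). Expression was 1.30-fold lower in reporter+ cells (log2 difference −0.38, SE 0.14), with a 95% interval of −0.75 to −0.02 from limma before adjustment, and it did not pass after adjustment. The difference was −0.35 in number 2 and −0.41 in number 3, and between −0.43 and −0.34 with any 1 library left out. The unadjusted p was 0.05 or more in 3 settings of the variance or the filter. It was also 0.05 or more when the libraries were paired by number and the variance trend was dropped. It was under 0.05 with this pairing and the trend kept. The same held with blanks set to the lowest value, with a pseudocount of 1 and with centering. In simulated libraries, the paired fit with the trend gave more false calls than the threshold allows. *Amotl2* was not called after adjustment in any of these settings.

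*Axl*, a receptor tyrosine kinase for GAS6, was at 5.21 and 4.91 in reporter+ and at 5.61 and 5.19 in reporter− cells. Reporter+ library 2 lay just above reporter− library 3, so the populations overlapped by that pair. The difference was −0.34 (SE 0.22, interval −0.92 to 0.24), with −0.39 in number 2 and −0.28 in number 3, and it was −0.13 without reporter− library 2.

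*Cyr61* encodes a matricellular protein of the CCN family that is secreted into the matrix. It was at 5.57 and 5.19 in reporter+ and at 5.82 and 5.37 in reporter− cells, with a difference of −0.21 (SE 0.24). It was lower in reporter+ cells in both numbers, with differences of −0.25 in number 2 and −0.18 in number 3, and the populations overlapped. Without reporter− library 2 the difference was 0.01.

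*Ctgf*, another CCN family protein and the most widely used YAP-TEAD readout, was at 3.44 and 4.96 in reporter+ and at 4.11 and 4.96 in reporter− cells. The populations differed by −0.67 in number 2 and were within 0.01 of each other in number 3. The average difference was −0.34 (SE 0.60, interval −1.93 to 1.25), and it turned to 0.42 without reporter+ library 2 and to 0.09 without reporter− library 3. With a library left out the populations are unequal in library number, so these values also hold the difference between numbers.

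*Ankrd1*, an ankyrin repeat protein known from striated muscle and from stretched cells, had values below 0 on the log2 scale in every library. It was at −1.42 and −2.80 in reporter+ and at −0.75 and −1.76 in reporter− cells, and reporter+ library 2 lay above reporter− library 3. The difference was −0.85 (SE 0.70, interval −2.70 to 1.00), with −0.66 in number 2 and −1.04 in number 3. The difference was −0.16 without reporter+ library 3 and −0.20 with a pseudocount of 1 on the linear scale. Such differences between populations had an SD of 0.688 over the 4191 genes whose mean lay below 0, against 0.216 over the other 10224.

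**Figure D2:**
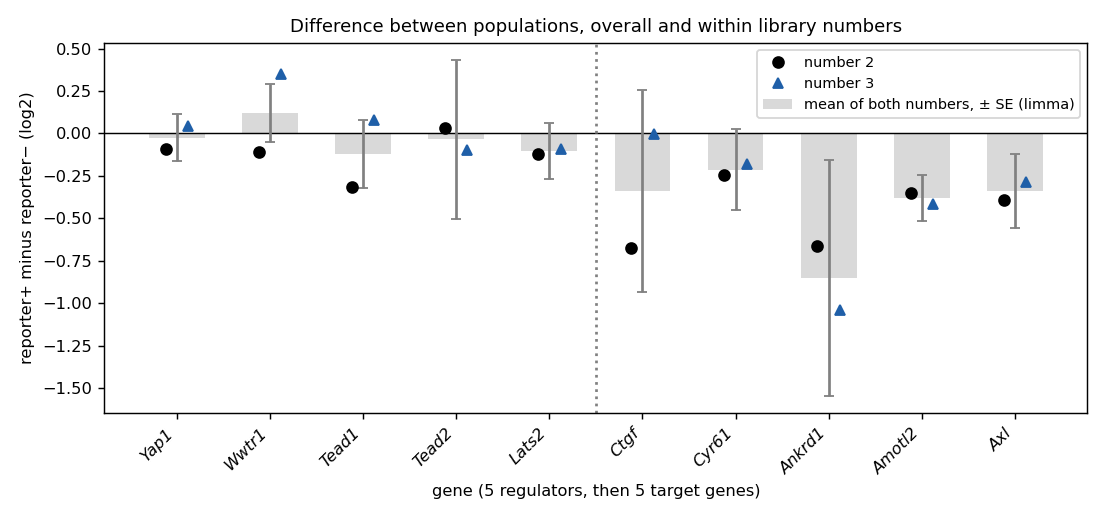
Difference between populations in log2 units (reporter+ minus reporter−) for the 5 regulators, left of the dotted line, and the 5 target genes, right of it. Black circles are number 2, blue triangles number 3 (1 library against 1), and grey bars with error bars are the mean and its SE from limma. All 10 symbols of the target genes are at or below 0, from −1.04 for *Ankrd1* to −0.005 for *Ctgf* in number 3, while *Yap1*, *Wwtr1*, *Tead1* and *Tead2* each have 1 symbol on either side.

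Across the 10 genes, 6 were lower in reporter+ cells in both numbers (the 5 targets and *Lats2*), 0 were higher in both, and 4 had opposite signs. Over all genes tested, 24.8% were lower in both numbers, 22.1% higher in both and 53.2% of opposite sign. The populations did not overlap for 1 of the 10 genes, *Amotl2*, lower in reporter+ cells, against 8.1% of all genes lower, 7.59% higher and 15.7% in either direction, a share of the 10 near the background. The median difference was −0.17 over the 10 genes, −0.34 over the 5 targets and −0.03 over the 5 regulators, beside 0.00 over all genes tested. The 5 targets share the 4 libraries, so they are not independent of each other. With 2 libraries against 2, the smallest p of an exact two-sided permutation test on a single gene is 0.333.

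The library number separated several of the 10 genes more than the population did. With the population in the model, *Tead2* and *Ctgf* were higher and *Cyr61* and *Ankrd1* lower in number 3 than in number 2 (4 of 10 with an adjusted p under 0.05, against 3065 of 14415 genes, 21.3%, with 11.5% higher and 9.79% lower). *Tead2* was 1.93-fold higher in number 3 (log2 difference 0.95, SE 0.12, limma adjusted p = 0.00106), by 0.88 in reporter+ and 1.01 in reporter− cells. *Ctgf* was 2.27-fold higher (1.19, SE 0.16, limma adjusted p = 0.00121), by 1.52 and 0.85. These genes were thus higher in number 3 in both populations.

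*Cyr61* was 1.33-fold lower in number 3 (−0.42, SE 0.12, limma adjusted p = 0.0335), with −0.38 in reporter+ and −0.45 in reporter− cells. *Ankrd1* was 2.29-fold lower (−1.20, SE 0.35, limma adjusted p = 0.0420), with −1.38 and −1.01, and the difference was −0.28 with a pseudocount of 1. *Axl* missed the threshold at −0.36 (SE 0.12, limma adjusted p = 0.0557). The CCN family genes *Ctgf* and *Cyr61* therefore moved in opposite directions between the numbers.

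*Yap1* (−0.05), *Wwtr1* (−0.06), *Tead1* (0.16), *Lats2* (−0.20) and *Amotl2* (−0.06) had limma adjusted p between 0.273 and 0.799 for the number. The groups defined by number did not overlap for 6 of the 10 genes, against 65.2% of all genes. For 8 of the 10 the difference between numbers was larger than that between populations, as for 75.7% of all genes, with *Wwtr1* and *Amotl2* as the exceptions. In simulated libraries, the share of unchanged genes among the calls of this fit was above the threshold of 0.05. All 4 calls by number were lost when the variance was fitted without a trend on the mean, a setting in which 0 of 14415 genes were called and 3909 had an unadjusted p under 0.05. The calls of *Cyr61* and *Ankrd1* were also lost without the population in the model, at adjusted p of 0.0814 and 0.141 with limma.

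**Figure D3:**
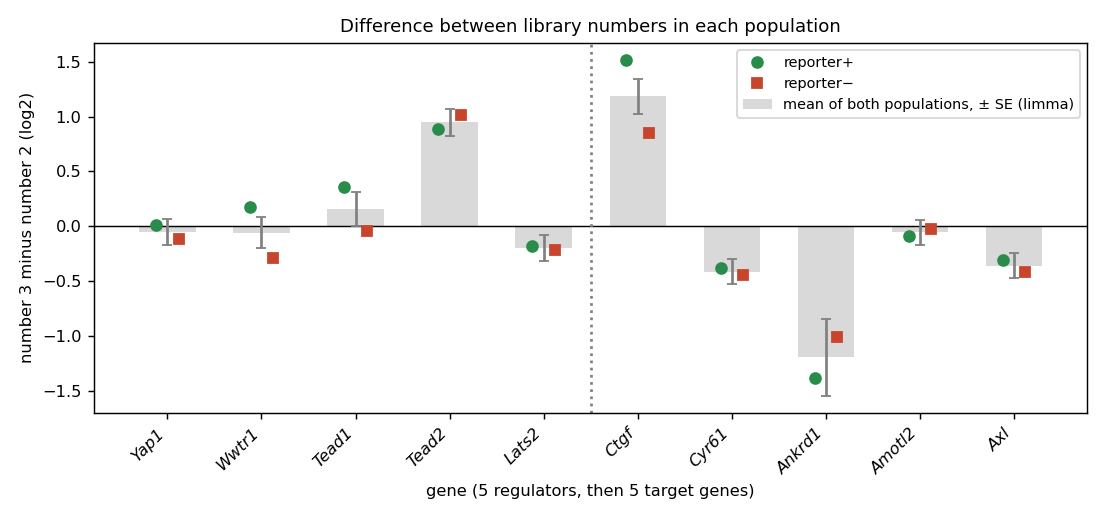
Difference between library numbers in log2 units (number 3 minus number 2) for the same 10 genes. Green circles are reporter+ cells, red squares reporter− cells, and grey bars with error bars are the mean and its SE from limma with the population in the model. *Tead2* (0.95) and *Ctgf* (1.19) lie above 0 in both populations, and *Cyr61*, *Ankrd1*, *Axl*, *Lats2* and *Amotl2* lie below 0 in both.

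The other genes of the pathway came from lists of known components. Between populations, 0 of the 10 core Hippo kinases and adaptors were called and 9 had opposite signs in the 2 numbers. Their differences ran from −0.22 to 0.13 around a median of 0.02. *Stk3* and *Stk4*, the MST kinases, differed by 0.08 each, and *Lats1* by 0.01, with overlap between populations for all 10 genes of the list. These 3 genes are named for their place in the pathway, with their values seen.

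Of the 6 other TEAD and VGLL factors, *Vgll1* was blank in every library and *Vgll2* had a value in reporter+ library 2 alone. The 4 with values in all libraries differed by −0.25 to 0.07 between populations, with 0 called. *Tead4* (−1.48, limma adjusted p = 0.0151) and *Vgll3*, a TEAD cofactor (−0.54, limma adjusted p = 0.0343), were lower in number 3. *Tead4* had values below 0 in every library. Both genes are named because they were the 2 calls of this list, where 21.3% of all genes were called and 9.79% were lower.

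Of the 11 upstream regulators, 0 were called between populations, 7 were lower and 2 higher in reporter+ cells in both numbers, and the median was −0.14. This median turned to 0.040 without reporter− library 3. *Wtip*, a LIM protein that binds LATS, was at 2.65 and 2.69 in reporter+ and at 2.83 and 2.87 in reporter− cells. *Wwc2*, of the KIBRA family, was at 2.94 and 2.94 against 3.08 and 3.12. *Fat4*, an atypical cadherin, was higher in reporter+ cells at 4.11 and 3.97 against 3.88 and 3.93. These 3 genes were chosen among the 4 of 11 without overlap (15.7% of all genes), the other being *Amotl1* (−0.14, lower), and had differences of −0.18 (SE 0.15), −0.16 (SE 0.14) and 0.13 (SE 0.14), none of which passed the test. Without reporter+ library 2 the difference of *Fat4* was 0.063.

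Of 16 further YAP-TAZ target genes known from other cells, 7 were lower and 4 higher in reporter+ cells in both numbers, with 0 called and a median of −0.13. This median turned to 0.026 without reporter+ library 3 and to 0.056 without reporter− library 2. *Ptpn14*, a phosphatase that restrains YAP, was at 3.01 and 2.59 in reporter+ and at 3.22 and 3.14 in reporter− cells (difference −0.38, SE 0.20, and −0.17 without reporter+ library 3). *Foxf2*, a forkhead factor of mesenchyme, was at 0.39 and 0.30 against −0.09 and −0.38 (0.58, SE 0.30). *Tgfb2*, a TGF-β ligand, was at 3.34 and 3.25 against 2.74 and 2.82 (0.51, SE 0.15), which was past the threshold before adjustment over all genes and not after it. These were the 3 of the 16 without overlap (15.7% of all genes), and the directions of the further targets were mixed.

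By number, 8 of these 16 targets were called, 4 higher and 4 lower in number 3, against 21.3% of all genes (11.5% higher and 9.79% lower). *Nt5e*, the gene of CD73, was the lowest at −3.16 and *Fjx1* the highest at 1.34, both named after their values were seen. In the core kinases 1 gene was called, *Map4k4* (0.69, limma adjusted p = 0.00339). Among the upstream regulators 3 were called, *Wwc1* (2.04) and the cadherin *Dchs1* (1.63) higher and *Frmd6* (−0.40) lower. *Wwc1* had values below 0 in every library. Neither regulators nor targets had 1 direction between the numbers.

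**Figure D4:**
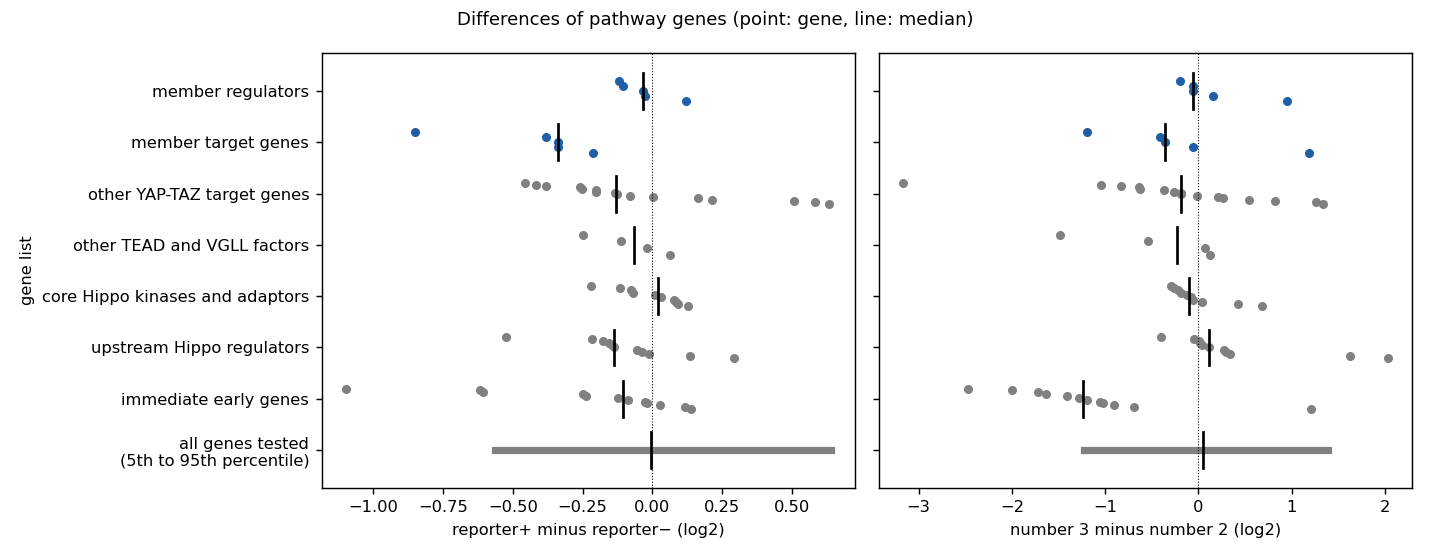
Differences of single genes by list, as points with a black line at the median, between populations at the left and between library numbers at the right, in log2 units on axes of different span. The grey band gives the 5th to 95th percentile of all genes tested. The member target genes lie below 0 between populations (median −0.34) and all but 1 of the 12 immediate early genes lie below 0 between numbers (median −1.24).

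The immediate early genes, most of them transcription factors, are induced within minutes by serum, by stretch or by cell handling, and *Ctgf*, *Cyr61* and *Ankrd1* share serum response inputs with some of them. Between populations 0 of 12 were called, with a median of −0.10. It ran from −0.77 to 0.50 with single libraries left out, which leaves the populations unequal in library number. Between numbers, 9 of 12 were lower in number 3 and 0 higher with an adjusted p under 0.05, against 9.79% and 11.5% of all genes, with a median of −1.24 beside 0.05 over all genes. Their summed linear level was 229 and 90.9 in reporter+ and 248 and 94.5 in reporter− libraries 2 and 3. *Dusp1*, a phosphatase of MAP kinases, had the lowest difference at −2.47, and *Fos* was at −1.72, both named after their values were seen. This list moved with the number, in the direction of *Cyr61* and *Ankrd1* and against that of *Ctgf*, and its part in their values was not tested.

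Levels of genes used as markers of other cells also differed between the populations in the same libraries, with 0 genes called without pairing. With the libraries paired by number, *Tyrobp*, *C1qb* and *Actg2* were called, and 0 genes were when the variance trend was dropped too. All 15 macrophage markers were higher in reporter+ cells on average, 10 of them without overlap (7.59% of all genes), although CD45+ cells had been gated out. This list had 0 called and a median of 1.00, with *Lyz2* and *Tyrobp* at 1.00 each. The summed linear level of the 15 was 263 and 306 in reporter+ and 103 and 196 in reporter− libraries. Of 10 smooth muscle and pericyte markers, 9 were lower in reporter+ cells in both numbers, 5 of them without overlap (8.1% of all genes). The median was −1.01 with 0 called, with *Tagln* at −1.17 and *Acta2* at −1.27. The paper reports high *Acta2* in both periosteal populations and counts *Cspg4* among chondrogenic genes. Some of these markers are thus not limited to other cells. The sum of the 10 was 19.0 and 30.6 in reporter+ and 41.2 and 47.8 in reporter− libraries, in the direction of the 5 targets.

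Of 10 endothelial markers, 8 had values in all libraries and 7 of these were lower in reporter+ cells, with a median of −1.30 and 0 called, and 4 were lower without overlap (8.1% of all genes). *Cdh5* (−4.26), *Emcn* (−3.44) and *Pecam1*, the gene of the gated CD31 (−3.19), had values below 0 in all libraries and are named after their values were seen, while *Eng* was at −0.06 and *Tek* at −0.77. The linear sum over the endothelial markers was 11.1 and 12.6 in reporter+ and 11.9 and 16.5 in reporter− libraries. Most of it was *Eng*, so this sum is not a measure of endothelial cells. Of 9 skeletal muscle markers, 4 had values in all libraries, *Pax7* was blank throughout and *Ckm* had a value in reporter− library 2 alone. The summed skeletal muscle level was 1.43 and 1.15 in reporter+ and 3.35 and 1.65 in reporter− libraries. The median over the 4 was −1.85 with 0 called, and 3 were lower in reporter+ cells without overlap, again against 8.1% (*Acta1* at −2.01, and *Myh1* at −4.68 and *Mylpf* at −1.69, both named after their values were seen), while *Tnnt3* was at 0.16. *Myh1*, *Mylpf* and *Tnnt3* had values below 0 in all libraries. The part of other cells, or of stromal cells that carry these markers, in the values of the 5 targets was not tested.

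Genes used as markers of other cells and of periosteal stroma were also among the calls by number. In number 3, 8 of 15 macrophage markers were called higher and 0 lower (median 0.61), against 11.5% and 9.79% of all genes. Of 10 smooth muscle and pericyte markers 3 were called higher, *Acta2* at 1.75 and *Tagln* at 1.20 among them, and 1 lower. Of 8 endothelial markers 1 was called higher, *Tek* at 3.32 with number 2 values below 0, a share near that of all genes. Of 4 skeletal muscle markers 0 were called. Among 11 periosteal stromal markers 2 were called higher, *Postn* at 3.03 among them, and 3 lower. The part of other cells in the values of *Tead2*, *Ctgf*, *Cyr61* and *Ankrd1* by number was not tested.

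The libraries carried the markers of periosteal stroma, with *Col3a1* between 9.37 and 10.78 and *Col1a2* between 8.47 and 9.07. Of 11 such markers 0 were called between populations without pairing, and the median difference was −0.06. With the libraries paired by number *Lum* was called (limma adjusted p = 0.0121), but not when the variance trend was dropped too. *Lum* (1.83), *Dcn* (1.39) and *Ctsk* (0.39) were higher in reporter+ cells without overlap (7.59% of all genes). *Postn*, at −1.13 and 2.04 in reporter+ and at 0.14 and 3.04 in reporter− libraries, differed by −1.14, and these 4 genes are named after their values were seen. *Pdgfra*, the gene that drives the reporter, was at 7.78 and 7.62 in reporter+ and at 7.87 and 7.44 in reporter− cells, with a difference of 0.05 (SE 0.24). The populations therefore overlapped in *Pdgfra* RNA after culture. Between 15423 and 15605 genes had a value per library, and the median value was 1.48 in each, as quantile normalization sets it.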

How the data were processed

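The authors sequenced stranded paired-end libraries on an Illumina NextSeq instrument and used Partek Genomics Suite and Spotfire. The submitters' processing notes list Partek 7.0, bcl2fastq 2.17.1.14 and GRCm38.p6. The deposited values are log2 signals after quantile normalization, with blanks where no signal was found. The linear unit, counting and filters are not given in the sources used here, so depth and counting error are unknown. Quantile normalization makes all values relative to a shared distribution, so a shift of all genes would not be seen.

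Columns were assigned to a population by heading. limma 3.58.1 (R 4.3.3, variance trend, two-sided) was fitted to the 14415 genes with 4 values, between populations without a block, and between numbers 3 and 2 with the population in the model, with Benjamini-Hochberg adjustment and a threshold of 0.05. The code was tested on simulated data. Linear sums are sums of 2 to the power of the value.

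All 10 genes and *Pdgfra* are named. From each other pathway list, up to 2 genes in each direction with the largest differences are named, among those with a mean of at least 0 and no overlap, and from each marker list the 2 with the highest mean. The members and lists were chosen with earlier results of these data known. RefSeq promoter windows were searched on both strands. Alternatives were a replicate block, single libraries left out, filters, a pseudocount of 1, centering and other variance models.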

Additional observations from a re-analysis of the deposited data

Results flagged for a closer look

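The difference between PDGFRα reporter+ and reporter− cells had opposite signs in the 2 library numbers for 4 regulators, as it had for 53.2% of all genes tested. In number 3 and number 2 respectively, reporter+ minus reporter− was 0.042 and −0.092 for *Yap1*, 0.35 and −0.11 for *Wwtr1*, 0.077 and −0.32 for *Tead1*, and −0.10 and 0.03 for *Tead2* on the log2 scale. Each value sets 1 library against 1, and whether the differences in number 2 and number 3 differ from each other was not tested.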

How the results depend on the processing

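The direction of *Amotl2*, *Axl* and *Ankrd1* between populations held under all alternatives run, and 0 of the 10 genes were called under any. With single libraries left out, the differences ranged from −0.43 to −0.34 for *Amotl2*, −0.54 to −0.13 for *Axl*, −1.54 to −0.16 for *Ankrd1*, −1.10 to 0.42 for *Ctgf*, −0.44 to 0.012 for *Cyr61*, −0.21 to 0.00293 for *Lats2*, −0.30 to 0.056 for *Tead1*, −0.54 to 0.47 for *Tead2*, −0.023 to 0.27 for *Wwtr1*, −0.085 to 0.036 for *Yap1* and −0.16 to 0.26 for *Pdgfra*. For *Ptpn14* the range was −0.59 to −0.17 and for *Fat4* 0.063 to 0.21. These fits had no term for the library number, so their shifts also hold the difference between numbers. The medians ranged from −0.18 to −0.11 for the 10 genes, −0.44 to −0.18 for the 5 targets, −0.082 to 0.085 for core kinases, −0.20 to 0.040 for upstream regulators, −0.29 to 0.068 for other TEAD and VGLL factors, −0.23 to 0.056 for other YAP-TAZ targets and −0.77 to 0.50 for immediate early genes. The members without overlap then numbered 3 to 6 lower and 0 to 2 higher, against 25.8% to 32.5% of all genes lower and 25.7% to 30.6% higher, and those with an unadjusted p under 0.05 numbered 0. This last count was also 0 with a mean of at least 0, without a variance trend and with robust variance.

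With the library number as a replicate block, 29 genes (0.201%) and 0 members were called, and 3 members (*Amotl2*, *Axl* and *Ankrd1*) had an unadjusted p under 0.05, as had 6.33% of all genes. The SE of the population difference was then 0.12 for *Tead2* and 0.16 for *Ctgf*, instead of 0.47 and 0.60. Of the marker genes, *Tyrobp*, *C1qb* and *Lum* (higher in reporter+ cells) and *Actg2* (lower) were called with the block. Simulated libraries showed that this fit can call strong differences between populations, with more false calls than the threshold allows. Whether equally numbered libraries share a source is not stated. Their deviations from the group means correlated at 0.681 across genes within a number. With the block and no trend, a setting chosen after seeing the data, 0 genes were called and 941 had an unadjusted p under 0.05. *Ankrd1* was among these 941, and *Amotl2* and *Axl* were not.

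Between numbers, 2 of the 10 genes were called without the population in the model. With blanks set to the lowest value, 1256 genes and 2 members were called. A pseudocount of 1 gave 1825 genes and, for *Ankrd1*, reduced the difference to −0.28 between numbers and −0.20 between populations. Without a variance trend, 0 genes and 0 members were called and 3 members had an unadjusted p under 0.05. *Cyr61* was at limma adjusted p of 0.0622 with the pseudocount and 0.0535 with robust variance, and *Axl* passed at 0.0475 with centering. Centering turned *Wwc2* to −0.0058, and a mean of at least 0 turned the median of other TEAD and VGLL factors to 0.072. With single libraries left out, which leaves no test, the differences ranged from −0.041 to 0.35 for *Tead1*, −0.29 to 0.17 for *Wwtr1*, −0.12 to 0.012 for *Yap1*, −0.14 to 0.044 for *Fat4*, −0.091 to 0.073 for *Tgfb2* and −0.0086 to 0.041 for *Wwc2*. The causes of the changes between settings were not tested.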

Other observations

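The hexamer GGAATG was also counted in the promoter windows of the other lists. It was in 4 of the 5 matched TEAD and VGLL factors, 2 of 8 core kinases and adaptors, 3 of 9 upstream regulators, 2 of 10 other YAP-TAZ targets and 2 of 10 immediate early genes, beside 16.6% of all genes. Upstream of the start alone it was in 6 of the 8 matched members and in 14.4% of all genes.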
